A study of Mus musculus with 14 samples.

Results

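SETBP1, its binding partner SET and the phosphatase PP2A were followed through 10 mouse genes: Setbp1, Set, the acidic nuclear phosphoprotein genes Anp32a, Anp32b and Anp32e, and the PP2A subunit genes Ppp2ca, Ppp2cb, Ppp2r1a, Ppp2r2a and Ppp2r5c. They were chosen by symbol, for their place in this pathway, with earlier results of these data known. All 10 were among the 55367 genes counted in each of 2 experiments. Messenger RNA was sequenced from mouse bone marrow cells depleted of mature lineages and cultured in IL3, IL6 and SCF. The cells of the first experiment carried a lentivirus with luciferase (3 libraries) or with SETBP1-D868N (3 libraries), a mutant form of SETBP1. In the second experiment every library came from cells carrying SETBP1-D868N, and these cells were exposed over 4 days to the solvent DMSO (4 libraries) or to 2.5 µM PF-9363, an inhibitor of MYST histone acetyltransferases (4 libraries). All cells were labelled wild-type, so SETBP1-D868N came only from the vector, pSMAL, on top of the cells' own Setbp1. The promoter of the vector, the species of its SETBP1 insert and the number and age of the mice are not given in the sources used here. Cells with unmutated SETBP1 from the vector, and luciferase cells with PF-9363, were not analysed here, so an effect of the mutation cannot be told apart from one of added SETBP1.

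PP2A is a serine/threonine phosphatase assembled from a catalytic subunit (PPP2CA or PPP2CB), a scaffold (PPP2R1A or PPP2R1B) and an exchangeable regulatory subunit that directs it to its substrates. SET and ANP32A are nuclear proteins that inhibit PP2A and also bind histones, and SETBP1 binds SET and protects it from cleavage. The D868N change lies in the stretch by which SETBP1 is marked for degradation, and such mutations are found in myeloid leukaemias. All of this takes place at the level of protein, whereas the values below are messenger RNA.

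Levels are CPM, read counts scaled to the library total and adjusted within each experiment by trimmed mean of M-values (TMM), and a gene is called higher or lower at an adjusted p under 0.05 in edgeR's quasi-likelihood test with Benjamini-Hochberg adjustment over all genes tested. Library totals ranged from 60147266 to 68730322 counts (first experiment) and from 7083731 to 10359093 (second), and the experiments shared no library and were never tested against each other. The labels do not say that libraries of a group came from separate cultures, so p-values measure the spread between these libraries, which may be technical. DMSO 2 was the lowest DMSO library for 7 of the 9 members tested there, and every PF-9363 call of a member was the same without it. Of the 10 stem and progenitor markers, 10 and 9 were detected well enough to test. Their summed level was 1064 to 1102 CPM with luciferase and 1068 to 1108 with SETBP1-D868N, with 5 called higher and 4 lower. It was 332 to 362 with DMSO and 882 to 1019.9 with PF-9363, with 5 higher and 3 lower. Most of that larger sum came from Csf3r (mean 81.5 CPM with DMSO, 326 with PF-9363), Gata2 (56.1 and 297) and Kit (69.8 and 191). The 3 lower were Erg (log2 fold change −0.94), Sox4 (−1.35) and Flt3 (−1.86), so the sum does not stand for each marker. Other lists moved with the groups. Cell division genes summed to 4463 to 4688 CPM with luciferase against 4775 to 5009 with SETBP1-D868N, and to 4166 to 4479.8 with DMSO against 662 to 1089.7 with PF-9363. Summed monocyte and macrophage markers were at 827 to 859 CPM with luciferase and 504 to 531 with SETBP1-D868N, and at 388 to 473 with DMSO and 3094 to 3736 with PF-9363. In the same order, mast cell and basophil markers were at 5280.4 to 5484, 5687 to 5807, 1195 to 1538 and 4589.9 to 5546 CPM. Although their sum was larger with SETBP1-D868N, 6 of these 10 were called lower there and 4 higher (median −0.61). Of all genes tested there, 22.7% were called lower and 24.5% higher. The 4 higher were Prss34 (log2 fold change 1.00), Ms4a2 (0.65), Mcpt8 (0.48) and Hdc (0.12). Cpa3, Fcer1a, Tpsb2, Tpsab1, Mcpt4 and Cma1 were lower (−0.54 to −2.03), so neither the sum nor the median stands for the whole list. With PF-9363, 9 were called higher, where 36.6% of all genes tested were. Neutrophil markers were present in these cells, which the labels call lineage-negative, at 24564 to 25603, 16350.3 to 18857, 18189 to 21479.9 and 16471 to 17886 CPM. Of these 10, 3 were called higher and 7 lower with SETBP1-D868N, and 2 higher and 4 lower with PF-9363. The 3 higher with SETBP1-D868N, Elane, Mpo and Prtn3, fell with PF-9363 (log2 fold changes −9.66, −8.49 and −7.14). Elane was at 1354 to 1519 CPM with DMSO and 0.311 to 3.74 with PF-9363, a fall that the sums do not show. B cell, T cell, erythroid and stromal markers each summed to at most 21.1 CPM in every library. The sums for erythroid markers did not overlap, at 9.87 to 11.1 CPM with luciferase and 19.8 to 21.1 with SETBP1-D868N, and B cell markers were at 12.5 to 16.0 with DMSO and 1.71 to 3.61 with PF-9363, while Ms4a1, Ebf1, Cd3e, Cd3g and Cd8a were at 0 throughout the second experiment. The part of these shifts in the members' values was not tested, and in bulk RNA fewer cells of a type and less RNA per cell cannot be told apart.

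With SETBP1-D868N, 6 of the 10 members were called higher and 1 lower, where 24.5% of all 15794 genes tested were called higher and 22.7% lower, 47.2% in all. The median log2 fold change of the members was 0.097, against 0.0043 over all genes tested. Setbp1 entered the test only through its SETBP1-D868N libraries, so these 2 summaries describe the list and support nothing further. With PF-9363, 9 members could be tested: 2 were called higher and 5 lower, where 36.6% of the 13456 genes tested were called higher and 39.4% lower, 76% in all. The median was −0.28, against −0.038 over all genes tested. The SETBP1-D868N changes were small apart from that of Setbp1, at most 0.36 on the log2 scale, while those with PF-9363 reached −2.06. For 7 members all SETBP1-D868N libraries lay above all luciferase libraries and for 2 all below, beside 29.4% and 27.3% of all genes tested (56.7% together). The 7 include Setbp1, so this count too describes the list and supports nothing further. For 2 members all PF-9363 libraries lay above all DMSO libraries and for 4 all below, beside 34% and 36.3% (70.3% together).

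**Figure D1:**
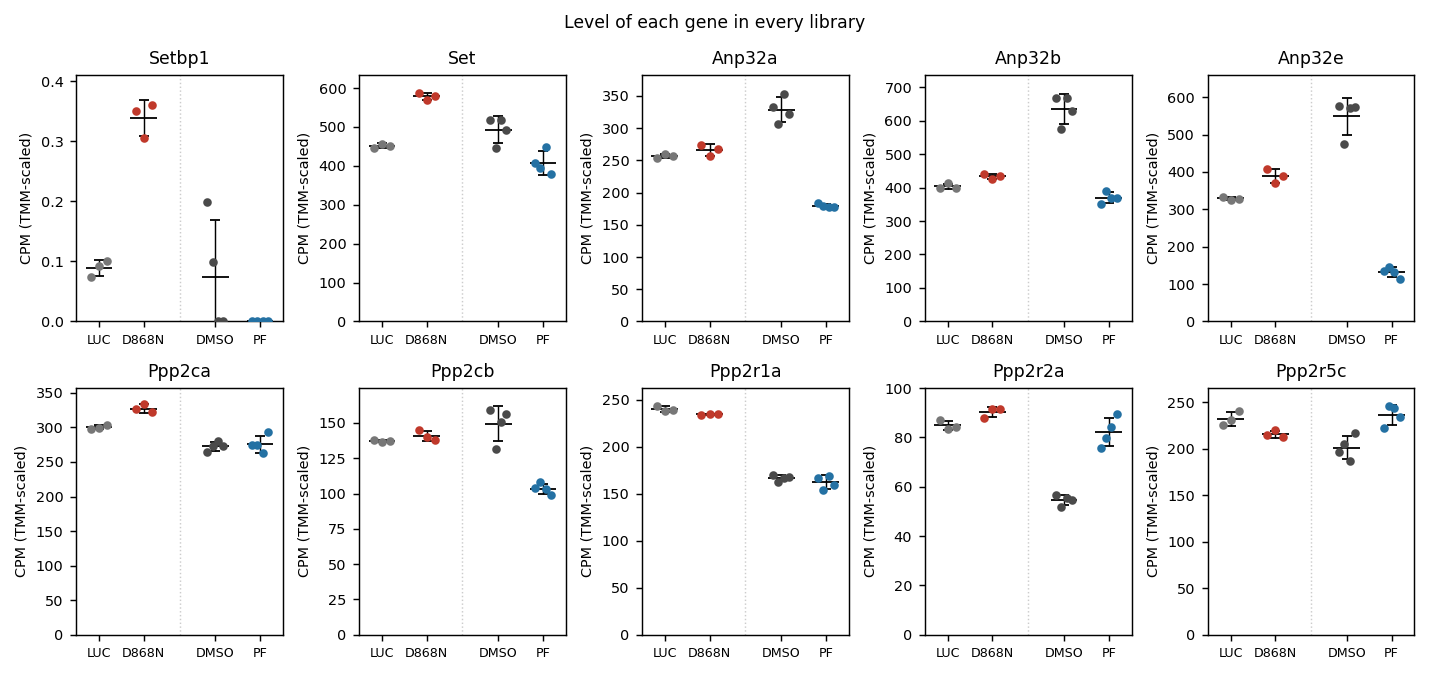
Level of each of the 10 members in CPM (vertical axes, each starting at 0) in the 14 libraries; points are libraries, bars the mean and SD, and the dotted line separates the 2 experiments. Anp32e lies at 475 to 578 CPM in the DMSO libraries and at 113 to 146 in the PF-9363 libraries, whereas Ppp2ca and Ppp2r1a overlap between DMSO and PF-9363.

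Setbp1, the mouse gene of the protein itself, was close to the limit of detection. Its counts were 5, 6 and 6 in the luciferase libraries and 23, 20 and 24 in the SETBP1-D868N libraries, and every SETBP1-D868N library was above every luciferase library. Pooled over the group and without TMM scaling, that is 17 counts or 0.0872 CPM (95% exact Poisson interval 0.0508 to 0.140) with luciferase and 67 counts or 0.345 CPM (0.267 to 0.438) with SETBP1-D868N. The log2 fold change was 1.91 ± 0.35 (SE), called higher with an edgeR adjusted p of 0.000660. Since it passed the filter on low counts only in the SETBP1-D868N libraries, in 3 of 3 against 0 of 3 with luciferase, it could be tested only because it was high there, and the call is a description. The second experiment held 3 counts of Setbp1 in all DMSO libraries together, 0.0776 CPM (0.0160 to 0.227), and 0 in the PF-9363 libraries, with an upper interval end of 0.103 CPM (the limit of 3 counts is 0.0835 CPM). These bounds cover counting error only, and a change with PF-9363 was not detectable at this depth. Reads of the vector's SETBP1 may or may not align to the mouse gene, which was not tested, so these values do not measure the transgene.

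Set encodes the inhibitor that SETBP1 binds. Its level was 446, 457 and 452 CPM in luciferase libraries 1 to 3 and 588, 569 and 579 CPM in SETBP1-D868N libraries 1 to 3. The groups were far apart against their spread, with a rise of 28.1% (log2 fold change 0.36 ± 0.024 (SE), edgeR adjusted p 3.12e-07). With DMSO, Set was at 517, 445, 519 and 492 CPM in libraries 1 to 4, and with PF-9363 at 407, 395, 448 and 379 CPM. These groups overlapped, since DMSO 2 lay just below PF-9363 3, and the other libraries were ordered with DMSO on top. Set was called lower with PF-9363 (log2 fold change −0.28 ± 0.064 (SE), edgeR adjusted p 0.000339), and the value was −0.33 without DMSO 2. The gene lies on the plus strand of chr2:30057378-30072577 in GRCm38, the build of all positions given here, and 12 annotated pseudogenes match its coding sequence at 90% identity or more. Their summed counts never exceeded 0.846% of those of Set.

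The ANP32 genes encode acidic, leucine-rich repeat proteins of the nucleus. Anp32a (chr9:62341293-62378812, plus strand), whose product inhibits PP2A, stood at 253, 259 and 257 CPM with luciferase and 274, 256 and 268 CPM with SETBP1-D868N. These groups overlapped and the difference was not called (log2 fold change 0.052, 95% interval −0.011 to 0.11, edgeR adjusted p 0.164). With DMSO it was at 333, 306, 353 and 323 CPM and with PF-9363 at 184, 179.7, 178 and 177 CPM, and all PF-9363 libraries were below all DMSO libraries. Anp32a thus fell by 45.3% with PF-9363 (log2 fold change −0.87 ± 0.060 (SE), edgeR adjusted p 1.45e-13).

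Anp32b (chr4:46450902-46472657, plus strand) encodes a histone-binding relative of ANP32A. It was at 400.0, 413 and 398 CPM with luciferase and 440.2, 426 and 435 CPM with SETBP1-D868N, a narrow gap without overlap (log2 fold change 0.10 ± 0.025 (SE), edgeR adjusted p 0.00466). DMSO libraries held 669, 574, 668 and 627 CPM and PF-9363 libraries 350.4, 391, 368 and 370.0 CPM, again without overlap, but in the lower direction (log2 fold change −0.78 ± 0.062 (SE), edgeR adjusted p 3.63e-12). Anp32e (chr3:95929246-95947390, plus strand) encodes a chaperone that removes the histone variant H2A.Z from chromatin, and of the 3 it had the largest log2 fold change in both comparisons. Its level was 334, 325 and 329 CPM with luciferase and 408, 370.1 and 389.7 CPM with SETBP1-D868N, higher in every SETBP1-D868N library (log2 fold change 0.24 ± 0.033 (SE), edgeR adjusted p 7.97e-05). With DMSO it was 578, 475, 570.3 and 574 CPM and with PF-9363 136, 146, 132 and 113 CPM, with every PF-9363 library far below every DMSO library. The log2 fold change of Anp32e with PF-9363 was −2.06 ± 0.077 (SE), with an edgeR adjusted p of 1.56e-17, and −2.13 without DMSO 2. That change was larger in size than those of 87.6% of all genes tested. The summed level of the cell division list fell beside it in each PF-9363 library, as given above.

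The promoters of Set, Anp32a, Anp32b and Anp32e are shown so that their sequence can be read beside the values. Those of Ppp2ca and Ppp2r1a, which were not called with PF-9363, are shown with them. They are RefSeq windows on GRCm38.p6, all on the plus strand, limited to bases outside annotated exons. Capitals mark complete matches to the motifs searched. Promoter windows were matched for 7 of the 10 members, the others being Setbp1, Ppp2cb and Ppp2r2a. Ppp2r5c was matched but is left out of the lines below, and its box counts are given after those of the others. The lines give the inner of the RefSeq starts of Set, which lies within the gene (chr2:30066336-30066455), then Anp32a (chr9:62341173-62341292), Anp32b (chr4:46450782-46450901), Anp32e (chr3:95929126-95929245), Ppp2ca (chr11:52098574-52098680) and Ppp2r1a (chr17:20945204-20945310).
Set: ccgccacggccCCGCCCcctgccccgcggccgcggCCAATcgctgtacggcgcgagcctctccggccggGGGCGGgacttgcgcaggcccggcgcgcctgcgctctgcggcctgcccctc
Anp32a: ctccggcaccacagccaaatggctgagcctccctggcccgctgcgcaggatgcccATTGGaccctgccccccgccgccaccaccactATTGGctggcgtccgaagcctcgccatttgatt
Anp32b: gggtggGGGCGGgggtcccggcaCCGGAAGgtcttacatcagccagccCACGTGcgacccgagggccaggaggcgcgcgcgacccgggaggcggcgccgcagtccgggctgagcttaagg
Anp32e: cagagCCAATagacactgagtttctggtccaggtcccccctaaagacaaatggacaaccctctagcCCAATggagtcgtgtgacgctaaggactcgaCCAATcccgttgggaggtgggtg
Ppp2ca: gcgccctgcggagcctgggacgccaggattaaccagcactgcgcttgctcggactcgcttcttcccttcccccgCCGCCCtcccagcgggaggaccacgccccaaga
Ppp2r1a: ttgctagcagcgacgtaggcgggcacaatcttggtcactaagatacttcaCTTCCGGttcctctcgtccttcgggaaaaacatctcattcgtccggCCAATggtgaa
Motifs were counted on both strands over the 250 bases before each RefSeq start, a longer window than the bases shown, and for Set at the start shown. Unlike the bases shown, this window takes in annotated exon bases, 143 each for Ppp2ca and Ppp2r1a. The cyclic AMP response element of Ppp2ca and the 3 GC boxes of Ppp2r1a counted below lie in those exon bases. The CCAAT box (CCAAT) occurred 4 times for Anp32e, 3 times for Anp32a, 1 time each for Set, Anp32b and Ppp2r1a, and 0 times for Ppp2ca, and 33.8% of all 32851 promoters held at least 1. The GC box (GGGCGG) occurred 3 times each for Anp32b and Ppp2r1a, 2 times each for Set and Ppp2ca, 1 time for Anp32a and 0 times for Anp32e. At least 1 was held by 32.7% of all promoters. Ppp2r5c, called higher with PF-9363, had 0 CCAAT and 5 GC boxes in chr12:110447272-110447521, and 1 and 0 in chr12:110485547-110485796. These shares count promoters with at least 1 match, so the number of matches in a promoter has no background here. No link between matches and the values was tested. An ETS motif (CCGGAAG, in 6.91% of promoters) was found 2 times for Anp32b and 1 time for Ppp2r1a. Further matches, 1 each, were an E-box (CACGTG, 6.02% of promoters) for Anp32b, a cyclic AMP response element (TGACGTCA, 1.55%) for Ppp2ca and a cell cycle homology region (TTTGAA, 16.0%) for Anp32e. Each run of capitals is 1 match, so no matches overlap in the bases shown. An E2F motif (TTTGGCGC or TTTCCCGC) and a HOX-PBX motif (TGATTTAT) were not found in these windows. The other Set start, whose window is nearly all exon and is not shown, held 1 each of the CCAAT box, GC box, E-box and cell cycle homology region. Such a match describes letters and not binding.

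Ppp2ca and Ppp2cb encode the alternative catalytic subunits, whose coding sequences were 81.9% identical over 928 aligned bases. Ppp2ca (chr11:52098681-52127778, plus strand) was at 298, 299 and 304 CPM with luciferase and 326, 333 and 322 CPM with SETBP1-D868N, higher in every SETBP1-D868N library (log2 fold change 0.12 ± 0.024 (SE), edgeR adjusted p 0.00130). With DMSO it was at 265, 272, 281 and 273 CPM and with PF-9363 at 274, 274, 262 and 293 CPM, and the groups overlapped. No call was made there: the log2 fold change was 0.016, with a 95% interval of −0.10 to 0.13 and an edgeR adjusted p of 0.816. Ppp2cb (chr8:33599625-33619441, plus strand) was called in the other comparison. It was not called with SETBP1-D868N, at 138, 137 and 137 CPM with luciferase and 145, 140.2 and 138 CPM with SETBP1-D868N (log2 fold change 0.039, 95% interval −0.021 to 0.098, edgeR adjusted p 0.276). With PF-9363 it fell, from 159, 131, 151 and 156 CPM in the DMSO libraries to 104, 108, 103 and 98.9 CPM, without overlap (log2 fold change −0.53 ± 0.067 (SE), edgeR adjusted p 4.35e-08).

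The ratio of the 2 catalytic subunit genes within a library does not depend on scaling between libraries. Ppp2ca to Ppp2cb stood at 2.16, 2.19 and 2.21 with luciferase and 2.25, 2.38 and 2.33 with SETBP1-D868N. It was 1.67, 2.07, 1.86 and 1.75 with DMSO and 2.64, 2.54, 2.55 and 2.96 with PF-9363. In both experiments the treated libraries were all above the controls, and the gap was wider in the second. The ratio is one of counts, which grow with transcript length, so its size is not the ratio of molecules. Of the members, Ppp2ca alone has exons that overlap other annotated genes. The largest overlap is with the long non-coding gene 9430098F02Rik on the opposite strand, at 2985 shared bases or 39.9% of the Ppp2ca exon bases. That gene is not among the genes counted, and whether its reads add to the Ppp2ca count was not tested. A smaller overlap is with the short gene Gm24157, also on the opposite strand (108 shared bases). In the libraries of the first experiment Gm24157 held 16 to 42 counts, 0.131% of the Ppp2ca count, and in those of the second 427 to 833, 27.3% of it. Over 72 gene pairs nested in this way on opposite strands, the inner gene had a median of 0.00372% of the outer gene's count in the table of the first experiment and of 14.1% in the other table. The cause of this difference between the tables was not tested, and how the counting treated strand is not given in the sources used here. Within the second experiment Gm24157 itself had a log2 fold change of 0.035 (edgeR adjusted p 0.682).

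**Figure D2:**
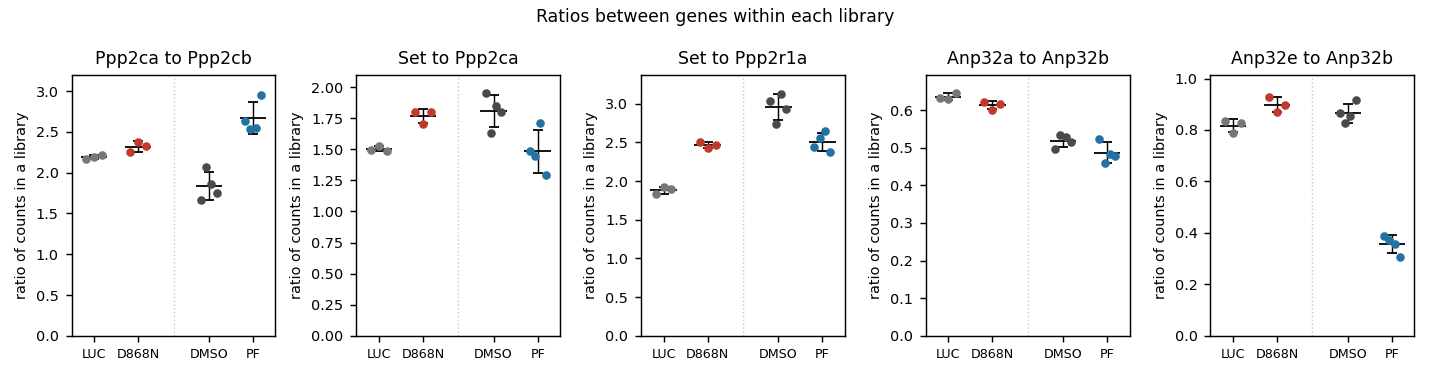
Within-library ratios of members (vertical axes, ratio of counts, starting at 0) in the 14 libraries; points are libraries, bars the mean and SD, and the dotted line separates the experiments. Ppp2ca to Ppp2cb lies at 1.67 to 2.07 with DMSO and 2.54 to 2.96 with PF-9363, and Anp32e to Anp32b at 0.828 to 0.916 and 0.306 to 0.389.

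Ppp2r1a (chr17:20945311-20965916, plus strand), a scaffold subunit gene, was called in neither comparison. It was at 244, 238 and 239 CPM with luciferase and 234, 235 and 235 CPM with SETBP1-D868N, and these ranges lay close together without overlap. The log2 fold change was −0.034 (95% interval −0.086 to 0.018, edgeR adjusted p 0.271). With DMSO it was at 170.1, 162, 166 and 168 CPM and with PF-9363 at 167, 154, 169.5 and 159 CPM, with overlap (log2 fold change −0.036, 95% interval −0.16 to 0.086, edgeR adjusted p 0.594). Its direction in the first comparison turned under library-size scaling (0.015). Within libraries, the ratio Set to Ppp2r1a was 1.83, 1.92 and 1.89 with luciferase and 2.51, 2.43 and 2.47 with SETBP1-D868N. It was 3.04, 2.74, 3.12 and 2.93 with DMSO and 2.43, 2.56, 2.65 and 2.38 with PF-9363, and neither pair of groups overlapped. Set to Ppp2ca was also higher in every SETBP1-D868N library (1.49, 1.53 and 1.49 against 1.802, 1.71 and 1.801). It was 1.95, 1.63, 1.85 and 1.803 with DMSO and 1.49, 1.44, 1.71 and 1.29 with PF-9363, where the groups overlapped.

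Within the ANP32 family, Anp32e to Anp32b was 0.835, 0.788 and 0.826 with luciferase and 0.927, 0.869 and 0.896 with SETBP1-D868N. It was 0.864, 0.828, 0.853 and 0.916 with DMSO and 0.389, 0.374, 0.359 and 0.306 with PF-9363. Neither pair of groups overlapped, and the directions were opposite. Anp32a to Anp32b was closer between groups, at 0.633, 0.629 and 0.646 and 0.622, 0.601 and 0.615 in the first experiment and 0.498, 0.533, 0.528 and 0.514 and 0.524, 0.460, 0.485 and 0.479 in the second, with overlap only in the second.

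The 2 regulatory subunits among the members belong to different families. Ppp2r2a (chr14:67014056-67072444, minus strand) encodes a B55 subunit, the family that opposes mitotic kinases at the exit from mitosis. It was at 87.0, 83.5 and 84.3 CPM with luciferase and 88.0, 91.6 and 91.5 CPM with SETBP1-D868N. The highest luciferase library lay just below the lowest SETBP1-D868N library (log2 fold change 0.090 ± 0.030 (SE), edgeR adjusted p 0.0280). This call was lost under DESeq2 (adjusted p 0.111) and without luciferase 2, luciferase 3, SETBP1-D868N 2 or SETBP1-D868N 3 (edgeR adjusted p 0.0907 to 0.116). With DMSO it was at 56.6, 51.8, 55.6 and 54.4 CPM and with PF-9363 at 75.7, 79.7, 84.1 and 89.4 CPM, a rise of 50.4% without overlap (log2 fold change 0.59 ± 0.073 (SE), edgeR adjusted p 3.22e-08). A pseudogene matching Ppp2r2a, Gm19221, held up to 6.94% of its count with DMSO and 2.75% with PF-9363 (18 to 36 counts and 10 to 17 counts).

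Ppp2r5c (chr12:110447120-110583062, plus strand) encodes a B56 subunit. It was at 226, 231 and 241 CPM with luciferase and 215, 220.1 and 213 CPM with SETBP1-D868N, lower without overlap and the only member called lower (log2 fold change −0.11 ± 0.029 (SE), edgeR adjusted p 0.00994). Leaving out luciferase 3 gave −0.081 (edgeR adjusted p 0.0661), and scaling by library size alone gave −0.057 (0.147). With DMSO it was at 197, 205, 188 and 217 CPM and with PF-9363 at 223, 246, 244 and 234 CPM, higher without overlap (log2 fold change 0.23 ± 0.062 (SE), edgeR adjusted p 0.00123). Under library-size scaling, which moved the median of all genes by −0.23 in that experiment, the value was 0.0028 (edgeR adjusted p 0.969). The rise of Ppp2r5c with PF-9363 is therefore one relative to the bulk of genes. Under the same scaling Ppp2ca (−0.22) and Ppp2r1a (−0.27) were called lower, and the other calls of members with PF-9363 were the same.

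**Figure D3:**
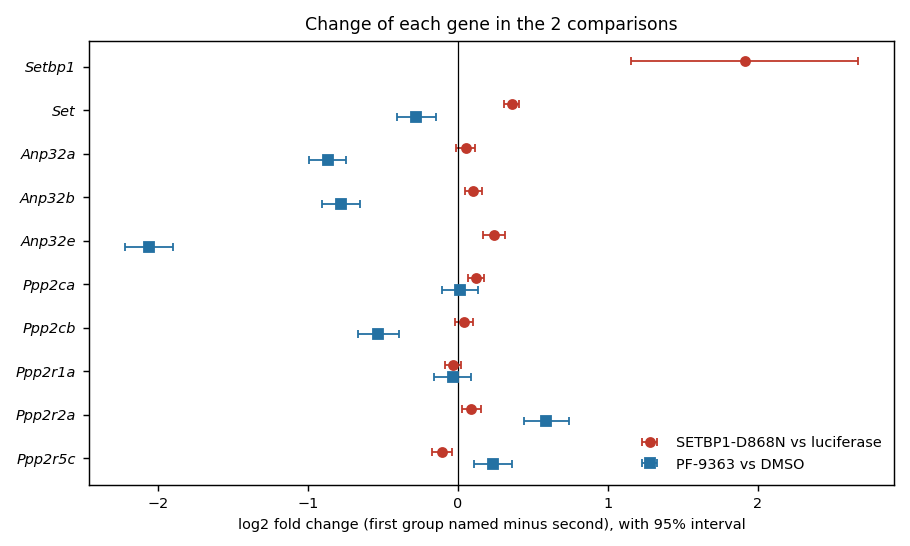
Log2 fold change with its 95% interval for each member (horizontal axis, first group named minus second), with circles for SETBP1-D868N vs luciferase and squares for PF-9363 vs DMSO. Setbp1 (1.91) stands apart in the SETBP1-D868N comparison and was not tested with PF-9363, where Anp32e (−2.06) is lowest and Ppp2r2a (0.59) highest.

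Levels can be compared between genes only per length, here as CPM per kilobase of merged exons. In luciferase cells the order was Anp32b (235), Set (111), Ppp2cb (93.4), Anp32e (92.3), Anp32a (81.0), Ppp2r1a (70.4), Ppp2ca (40.1), Ppp2r5c (28.1), Ppp2r2a (15.8) and Setbp1 (0.00897). Ppp2cb (93.1 to 93.8) and Anp32e (91.2 to 93.6) did not differ beyond the spread of their libraries, and the other neighbours did not overlap. The place of a gene depends on the length used, since with the longest transcript Set came to 159 and Ppp2r5c to 56.6. Anp32e held rank 2 of the 10 with DMSO (154 CPM per kilobase) and rank 6 with PF-9363 (37.0), where its range overlapped that of Ppp2ca at rank 7 (36.8). With the longest transcript, Anp32e (168) lay below Set (174) with DMSO and (40.3) below Ppp2r5c (57.7) with PF-9363.

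Of 14 other PP2A subunit genes, 12 were tested in each experiment. With SETBP1-D868N, 1 was called higher and 2 lower: the second scaffold gene Ppp2r1b rose (luciferase 74.4 to 75.7 CPM, SETBP1-D868N 85.4 to 90.7 CPM, log2 fold change 0.23, edgeR adjusted p 5.57e-05), and Ppp2r3a (−0.20) and the striatin gene Strn (−0.13) fell. Of all genes tested with SETBP1-D868N, 24.5% were called higher and 22.7% lower. Under library-size scaling the list had 5 called higher and 1 lower. The call of Strn was lost under 5 alternatives and that of Ppp2r3a without luciferase 1 or luciferase 3. With PF-9363, 6 were called higher and 3 lower, a share near the 76% of all genes tested that were called. The largest rises were those of Ppp2r3a (0.74), Strn3 (0.48) and the B56 gene Ppp2r5a (0.48), and the falls were those of the B56 genes Ppp2r5d (−0.78) and Ppp2r5e (−0.37) and of Ppp2r1b (−0.36). Thus 3 B56 genes were called higher with PF-9363 (Ppp2r5c, Ppp2r5a and, named after its value was seen, Ppp2r5b at 0.43) and 2 lower (Ppp2r5d and Ppp2r5e). The list's median log2 fold change was 0.050 with SETBP1-D868N and 0.15 with PF-9363, beside 0.0043 and −0.038 over all genes tested.

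Of 11 genes of PP2A regulators, 8 were called lower and 1 higher with PF-9363, where 39.4% of all genes tested were called lower and 36.6% higher, and the list's median was −0.73 beside −0.038. Cip2a, which encodes an inhibitor of PP2A found in dividing cells, fell (DMSO 69.2 to 79.9 CPM, PF-9363 8.41 to 21.01 CPM, log2 fold change −2.52, edgeR adjusted p 1.26e-05). Mastl, the mitotic kinase that blocks PP2A-B55 through ENSA and ARPP19, fell as well (DMSO 15.5 to 19.0 CPM, PF-9363 2.82 to 4.203 CPM, −2.18). So did Lcmt1, the methyltransferase of the catalytic subunit (DMSO 24.6 to 31.3 CPM, PF-9363 11.6 to 14.5 CPM, −1.04). Ensa was the gene called higher, at 103 to 111 CPM with DMSO and 143 to 150.0 CPM with PF-9363 (0.46). With SETBP1-D868N, 3 of the 11 were called higher and 1 lower, with a median of 0.041, where 47.2% of all genes tested were called. Those higher were Cip2a (0.18), Bod1 (0.18), which inhibits PP2A-B56 in mitosis, and the phosphatase activator gene Ptpa (0.11), and Ensa (−0.19) was lower. The Bod1 call was lost under 6 alternatives. The 20 cell division genes moved beside these lists, with 15 called higher and 0 lower with SETBP1-D868N and all 20 lower with PF-9363 (median −2.51).

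Partners of SET and the ANP32 proteins comprised 11 genes, of which 10 were tested. With SETBP1-D868N 5 were called higher and 2 lower, among them the DNA repair enzyme gene Apex1 (0.23), the nucleoside diphosphate kinase gene Nme1 (0.23), the histone chaperone gene Nap1l1 (0.21) and, lower, Tspyl1 (−0.13), whose call was lost under library-size scaling. Under that scaling 0 of the list were called lower. Of all genes tested with SETBP1-D868N, 24.5% were called higher and 22.7% lower. With PF-9363 6 were called lower and 2 higher, a share near the 76% of all genes tested that were called. H2az2, which encodes a form of the histone variant H2A.Z, fell (DMSO 49.2 to 55.1 CPM, PF-9363 10.1 to 18.6 CPM, log2 fold change −1.99, edgeR adjusted p 3.31e-12). The chromatin protein gene Hmgb2 (−1.85) and Nap1l1 (−0.97) fell too, while Tspyl2 (0.69) and Nme1 (0.65) rose. Trex1 had 0 counts in every library, and all of its exon bases are shared with Atrip on the same strand, so its level was not measured. Nme1 shares 418 exon bases, 12.5% of its own, with Gm20390 on the same strand. Gm20390 had a mean of 0 counts in every group, and how reads in the shared bases were counted was not tested. The level of Nme1 may therefore be that of its other bases only.

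Genes of SETBP1 partners were 5, all tested. Phf6, a chromatin gene mutated in leukaemias, was the only one called with SETBP1-D868N, at 49.2 to 53.0 CPM with luciferase and 59.0 to 60.8 CPM with SETBP1-D868N (log2 fold change 0.24, edgeR adjusted p 0.000154). With PF-9363 it was at 39.4 to 43.6 CPM in DMSO and 16.8 to 19.1 CPM in PF-9363 libraries (−1.22, edgeR adjusted p 3.21e-12). Btrc, which encodes the ubiquitin ligase subunit that recognises the stretch holding the mutation, was also lower (−0.90), and Hcfc1 (−0.15) was called lower but lost its call under 8 alternatives. The histone methyltransferase gene Kmt2a was higher, at 36.3 to 56.1 CPM with DMSO and 93.8 to 106 CPM with PF-9363 (1.16, edgeR adjusted p 4.06e-10), as was Phf8 (0.25), which lost its call under library-size scaling and without DMSO 4. Catalytic subunits of related phosphatases were 6. Ppp5c was the only one called with SETBP1-D868N (0.26), and with PF-9363 4 were called lower and 0 higher, led by Ppp5c (−0.88), Ppp1cc (−0.71) and Ppp6c (−0.57). Ppp2cb fell beside them in that comparison. Beside both lists, 47.2% of all genes tested were called with SETBP1-D868N and 76% with PF-9363, 39.4% being lower.

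**Figure D4:**
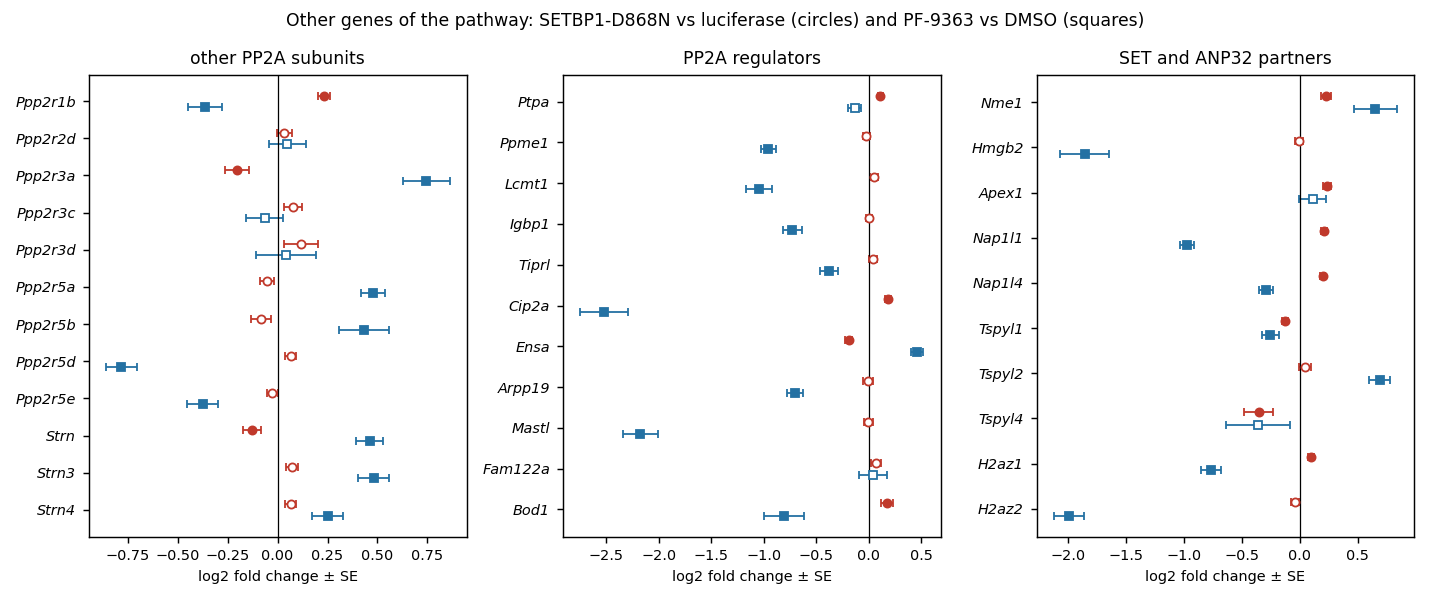
Log2 fold change ± SE (horizontal axes) of each tested gene in 3 lists of the pathway, with circles for SETBP1-D868N vs luciferase and squares for PF-9363 vs DMSO, filled where the edgeR adjusted p was under 0.05. With PF-9363, Cip2a (−2.52) and Mastl (−2.18) are lowest among the PP2A regulators and H2az2 (−1.99) among the SET and ANP32 partners, while most circles lie close to 0.

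The 5 genes most like Set over the 14 libraries, by Pearson's r of log2 CPM centred within each experiment among 9597 genes, were Psme3 (0.98), Cct3 (0.97), Eif2s2 (0.96), Zfp146 (0.95) and Pgam5 (0.95). These points share libraries and scaling, and a gene that rises in the first experiment and falls in the second scores high by construction. Cct3, a chaperonin subunit gene, had log2 fold changes of 0.38 with SETBP1-D868N and −0.24 with PF-9363, beside 0.36 and −0.28 for Set. Among the members, Anp32b ranked 1260 (0.71) and Ppp2r5c 8495 (−0.74).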

How the data were processed

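The authors deposited raw counts of reads per gene symbol, per the labels, in 1 table per experiment, and 0 columns were left without a sample. STAR, DESeq2 and the builds GRCm38 and mm10 are named, per the submitters' processing notes. The counting program, annotation and strand handling are not given in the sources used here. Per the labels' protocols, library kits and input RNA differed between the experiments (500 ng and 100 ng), so each was fitted alone.

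From the counts, genes were filtered with filterByExpr of edgeR 4.0.16 in R 4.3.3 (minimum count 10, minimum total 15), leaving 15794 and 13456 genes. TMM-scaled values were compared by edgeR's quasi-likelihood test with group as the single factor. The procedure was also run on simulated data in which a small share of genes changed, unlike the many called here. That run therefore does not test its error rates in these data. Limits at 0 use 3 counts. Totals of 60147266 to 68730322 counts (first experiment) and 7083731 to 10359093 (second) set the precision for Setbp1. Ratios within libraries were taken from CPM without a pseudocount, and adding 0.5 counts was an alternative.

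The members and lists were chosen with earlier results of these data known. Outside the members, named genes were, per list, comparison and direction, the 3 called genes with the largest change provided that the group with the higher mean reached 5 CPM. The regulator Pabir1 is named Fam122a in the tables, and Ahsp of the erythroid list was not matched. Positions and exon lengths came from GENCODE M21 (GRCm38), and promoters from RefSeq (GRCm38.p6). Similar coding sequences were found by alignment, at 90% identity over 200 bases or more. Alternatives were RLE or library-size scaling, other count filters, DESeq2 1.42.0, limma-voom (limma 3.58.1), no robust estimation, the replicate number as a block, leaving out each library, and the longest transcript as length. The sequence and position of Setbp1 are not reported here.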

Additional observations from a re-analysis of the deposited data

Results flagged for a closer look

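Anp32e in the DMSO group had 1 library apart from the others. DMSO 2 held 475 CPM, and the other 3 held 570.3 to 578 CPM, so the gap of DMSO 2 to its neighbour was 0.927 of the group's whole range, above Dixon's 95% critical value for 4 samples. Chance alone gives such a gap in about 1 in 20 groups, and 19 groups of members were screened. Without DMSO 2 the log2 fold change of Anp32e with PF-9363 was −2.13 in place of −2.06, and its call was the same.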

How the results depend on the processing

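Of 140 recomputed fold changes of members with SETBP1-D868N, 129 kept their direction and their side of the threshold, and of 144 with PF-9363, 137 did. Library-size scaling alone moved the median of all genes by 0.049 and −0.23. It took calls to be higher from 51.9% to 62.1% in the first experiment and from 48.1% to 36.2% in the second. Under it, 0 members were called lower with SETBP1-D868N, where 2997 of all genes were, and 1 was called higher with PF-9363. Anp32a (0.10, edgeR adjusted p 0.0123) and Ppp2cb (0.087, 0.0214) were then called higher with SETBP1-D868N, and Ppp2r1a turned to 0.015 without a call. With PF-9363, Ppp2ca turned to −0.22 (edgeR adjusted p 0.00132). It also turned, without a call, to −0.0058 with no count filter, −0.0036 without DMSO 1 and −0.0057 without PF-9363 4, and Ppp2r1a turned to 0.00076 without PF-9363 2. With each library left out in turn, Ppp2ca ranged from −0.0057 to 0.050 and Ppp2r1a from −0.053 to 0.00076, none of them called. Leaving out each library in turn gave 5 to 6 members higher and 0 to 1 lower with SETBP1-D868N. Of all genes, 3330 to 3606 were then called higher and 3106 to 3480 lower. With PF-9363 it gave 2 members higher and 5 lower in every case, beside 36.6% and 39.4% of all genes tested in the main fit. The SETBP1-D868N counts include Setbp1, so they describe the list and support nothing further. The cause of these shifts was not tested.

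Same-numbered libraries did not deviate together (correlations −0.097 to 0.0075, with 0 of 3 luciferase and 0 of 4 DMSO libraries closest to their own number), so the numbers do not pair them. With the replicate number as a block, 5 members were called higher and 1 lower with SETBP1-D868N, where 3416 and 3224 of all genes were. Ppp2r2a lost its call there (edgeR adjusted p 0.0765). With PF-9363, 2 members were called higher and 5 lower, beside 36.6% and 39.4% of all genes tested in the main fit. With the longest transcript as length, levels in luciferase cells were 159 CPM per kilobase for Set, 121 for Anp32a, 100.5 for Anp32e, 42.3 for Ppp2ca, 99.7 for Ppp2r1a, 21.2 for Ppp2r2a and 56.6 for Ppp2r5c. Of 42 named results in the other lists, 6 lost a call under at least 1 alternative and 0 changed sign. Setbp1, at 0.0776 CPM with DMSO, lay below the count filter of the second experiment (1.04 CPM) and of the deeper first one (0.154 CPM).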

Other observations

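The mix of PP2A regulatory subunits was summed by family, as a share of the summed level per kilobase of merged exons over the regulatory subunit genes, chosen after values were seen and given without a test. The B56 family made up 61.0% ± 0.525 (SD, n = 3) with luciferase, 59.9% ± 0.418 (SD, n = 3) with SETBP1-D868N, 61.7% ± 1.24 (SD, n = 4) with DMSO and 56.8% ± 0.924 (SD, n = 4) with PF-9363. The striatins, which hold PP2A in complexes with kinases, made up 19.0% ± 0.515, 19.1% ± 0.161, 19.6% ± 1.11 and 22.7% ± 0.709 in the same order. The B55 family stood at 14.04% ± 0.218, 14.8% ± 0.274, 11.002% ± 0.730 and 12.7% ± 0.298. Within it, Ppp2r2a supplied 63.4% ± 1.38 with DMSO and 71.5% ± 2.53 with PF-9363. With the longest transcript as length, the B56 share was 67.2% with DMSO and 64.9% with PF-9363. The striatin share was then 16.5% and 18.1%, the B55 share 9.06% and 9.86%, and that of Ppp2r2a within B55 60.1% and 68.6%. Of 32 shares computed by group, 25 moved by at least their SD under this length, so their sizes depend on the length used.

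Ppp2r1a supplied 85.8% ± 0.244 of the scaffold level per kilobase with luciferase and 83.4% ± 0.401 with SETBP1-D868N (SD, n = 3), the rest being Ppp2r1b. It supplied 83.4% ± 1.37 with DMSO and 86.3% ± 1.32 with PF-9363 (SD, n = 4). With the longest transcript as length, these 4 shares were 82.9%, 80.1%, 80.1% and 83.5% in the same order.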
